A study of Mus musculus with 6 samples.

Results

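Transcription factors that drive the epithelial-mesenchymal transition (EMT) were followed in mouse embryonic stem cells (mES) and epiblast stem cells (EpiSC). The 8 genes are Snai1, Snai2, Snai3, Twist1, Twist2, Zeb2, Foxc1 and Foxc2, taken as a set by name and not by their values. They had 11 of the 41174 probes on the array, which carry 27947 gene or transcript names. The member names as spelled matched 7 probes, 1 for each gene but Zeb2, and the other 4 carry Zfhx1b, the older name of Zeb2. All 11 probes were bright enough on every array of at least 1 group to be tested.

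The mES group held the lines ESF122 (replicate 1), ESF175/1 (replicate 2) and 1 that the labels give as both ESF58/2 and ESF58/1 (replicate 3). The EpiSC group held line EpiSC-5 (replicate 1) and line EpiSC-7 at passage 20 (replicate 2) and passage 25 (replicate 3), so that 2 lines gave 3 samples. Strain and genotype are not given by the labels used here. Both cell types grew on irradiated mouse embryonic fibroblasts, mES with LIF and EpiSC with FGF2, and RNA of these fibroblast feeder cells can be part of any sample. The factor in the medium and the slide went with the cell type, and their effects cannot be told apart from it. Beyond line and passage the labels name no separate cultures, so a p-value reflects only how far these samples differ, in part perhaps for technical reasons, and its precision is limited by 3 arrays per group.

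In an EMT, cells of a sheet lose their junctions and polarity and become migratory, as epiblast cells do when they pass through the primitive streak and neural crest cells when they leave the neural tube. Snail and Zeb proteins are zinc finger repressors that bind E-boxes in the regulatory regions of epithelial genes such as Cdh1, the E-cadherin gene, and Twist proteins are basic helix-loop-helix factors that bind E-boxes as dimers with E proteins. Foxc1 and Foxc2 are forkhead factors of mesoderm, vessels and mesenchyme. Many of these genes are also active in fibroblasts, and in RNA of a mixed culture fewer cells of a type and less RNA per cell cannot be told apart.

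The cell type labels matched their markers. Of 10 naive ES markers 10 fell in EpiSC, and 7 of 9 primitive streak and mesendoderm markers, with T (4.01 ± 0.49 on the log2 scale) and Eomes (4.18 ± 0.48) among them, and 6 of 8 epiblast markers rose (limma, adjusted p under 0.05). Some markers entered the test through 1 group only, which could fix their direction. Among those above background on all 6 arrays 7 of 7 naive ES markers fell. Of the streak and mesendoderm markers 7 of 7 rose there, and of the epiblast markers 4 of 6. Of all 29552 probes tested, 7708 passed, which is 26.1%, with 12.2% higher in EpiSC and 13.9% lower. Between 66.3% and 75.4% of probes per array were well above background. The fibroblast genes differed mainly within the groups. Col1a1, a fibroblast collagen gene, had a scaled signal of 15427, 2583 and 34029 on mES replicates 1 to 3 and of 26724, 14941 and 1642 on EpiSC replicates 1 to 3. A scaled signal is the processed signal brought to a common 75th percentile over the arrays, and it compares arrays for 1 probe and not probes with each other. Of 20 fibroblast markers 18 were tested and 0 passed in limma (1 had an unadjusted p under 0.05), and the scaled signal summed over the 17 of them measured on all 6 arrays was 8865 to 86941 in mES and 9191 to 69363 in EpiSC. mES replicate 2 and EpiSC replicate 3 had the lowest sums of their groups. The defining markers Col1a1, Col3a1, Dcn and Lum were above background on all 6 arrays.

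Zeb2, a zinc finger and homeodomain repressor that acts in the streak, the neural plate and the neural crest, was the member that rose, and Snai3, the least studied Snail gene, fell. With the brightest probe of each gene, 2 of the 8 genes passed (25%), close to the 26.5% of all 20128 genes and named transcripts, and the groups did not overlap for 3 of the 8 (37.5%), against 48.7% of all. The median log2 fold change (EpiSC minus mES) of the 8 was 0.35, against -0.11 over all. By probe 4 were higher and 1 lower of 11, against 26.1% of all probes passing. The 4 Zeb2 probes share a target and are not independent, and the dimmer of them entered the test only through the EpiSC arrays. The groups did not overlap for 6 of the 11 probes, against 48% of all probes, and the median of the 11 was 0.83, against -0.09.

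Zeb2 was higher on every EpiSC array than on every mES array by each of its 4 probes. The brightest, A_52_P596008, had a scaled signal of 126, 85.4 and 103 on mES replicates 1 to 3 and of 368, 777 and 621 on EpiSC replicates 1 to 3. The lowest EpiSC value was that of EpiSC-5, and the EpiSC-7 arrays lay above it. This is 5.45-fold higher in EpiSC (log2 fold change 2.44 ± 0.31, SE, n = 3 per group, limma adjusted p = 0.00362). A second probe of transcript variant 2, A_51_P121206, read 56.1, 56.4 and 58.6 in mES and 148, 320 and 205 in EpiSC. The mES lines hardly differed here, and the probe rose 3.74-fold (1.90 ± 0.29, adjusted p = 0.00621).

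The other probes of Zeb2 were dim in mES cells. A_52_P526372, of transcript variant 1, read 10.9, 7.34 and 6.52 on the mES arrays, all not well above background, and 32.9, 52.9 and 57.1 on the EpiSC arrays, all above it. It was at least 2.51-fold higher in EpiSC (measured log2 fold change 2.52 ± 0.30, adjusted p = 0.00285). A_52_P587928, designed on a cDNA clone that the array names Zfhx1b, read 4.12, 3.57 and 4.39 in mES, again not well above background, and 45.3, 73.0 and 45.5 in EpiSC. It was at least 2.88-fold higher (3.73 ± 0.24, adjusted p = 0.000347). For such a bound the EpiSC mean was divided by the mean of the dimmest detectable signals of the mES arrays. Both probes entered the test only because they were above background on the EpiSC arrays, which fixed their direction. Their p-values rest on mES readings not well above background and are no separate support for the increase. By all 4 probes the array of EpiSC-5 had the lowest EpiSC value and all 3 mES values lay below it.

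The Zeb2 values were set beside Col1a1 on each array. Within the EpiSC group all 4 probes were lowest on replicate 1, where Col1a1 was highest. Within the mES group the brightest probe and A_52_P587928 were lowest on replicate 2, as Col1a1 was, and the others were not. A_52_P587928, not well above background there, had the order of Col1a1 in mES. On EpiSC replicate 3, where Col1a1 was lowest, the log2 signals of the 4 probes lay 0.89 to 1.64 above their means over the 6 arrays, and on mES replicate 3, where it was highest, they lay -1.73 to -0.91 from them. Those means join both groups, so a probe higher in EpiSC tends to these signs whatever its relation to Col1a1. With Col1a1 as a covariate the log2 fold changes were 2.44, 1.90, 2.49 and 3.75 in the order in which the probes were described. All 4 passed (highest limma adjusted p = 0.0146). Leaving out any 1 of the 6 arrays kept all 4 past the threshold. Without the array lowest in Col1a1 of each group, which leaves 2 arrays per group, the log2 fold changes were 2.24, 1.92, 2.30 and 3.76. A_52_P526372 (limma adjusted p = 0.0419) and A_52_P587928 (adjusted p = 0.012) passed, the probes not well above background in mES. The probes detected on all arrays did not pass (adjusted p = 0.0508 and 0.0662). In that fit 2078 probes of the whole array passed.

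**Figure D1:**
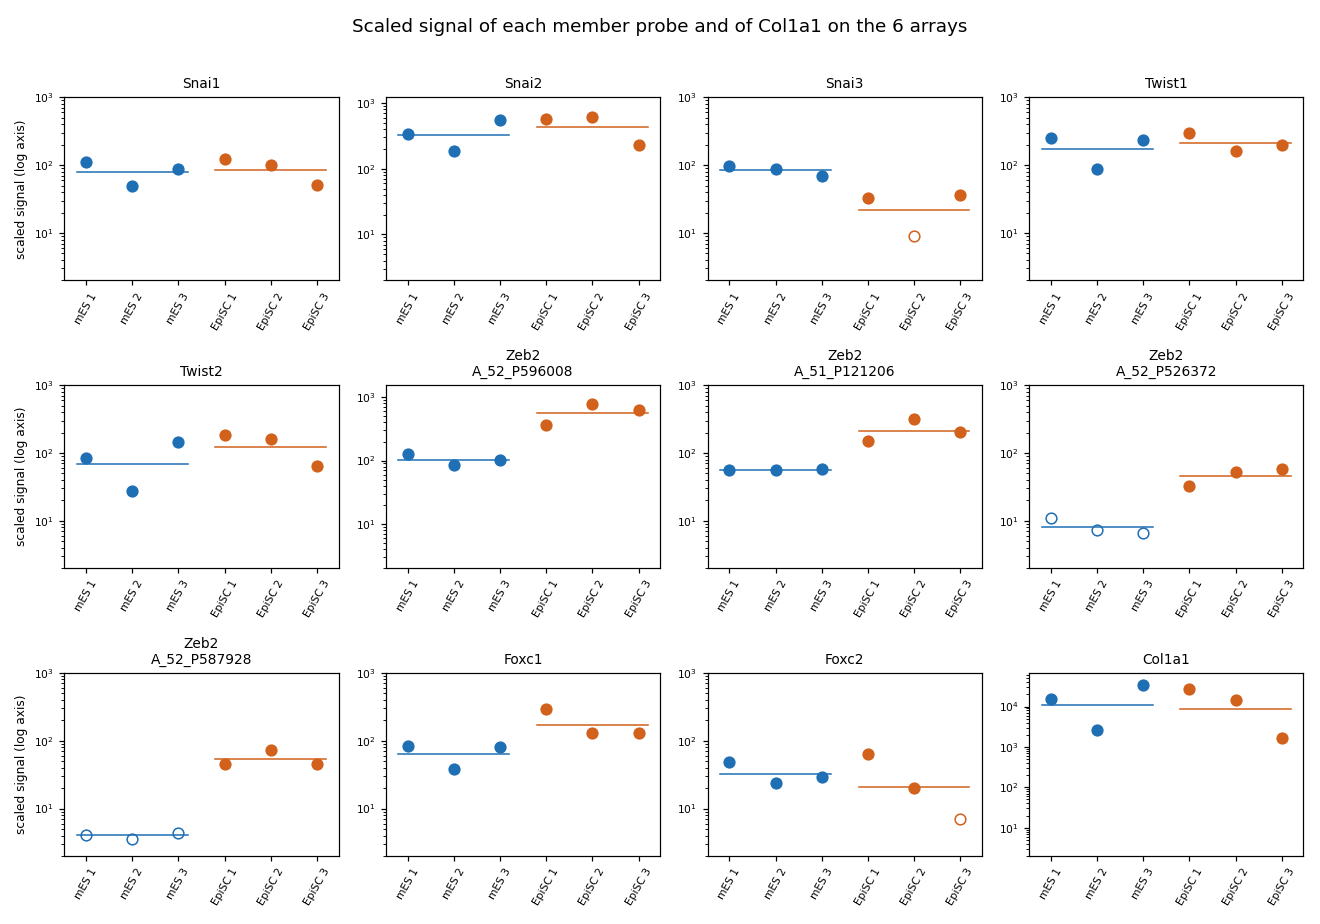
Scaled signal (log axis) of the 11 member probes and of Col1a1's brightest probe on the 3 mES (blue) and 3 EpiSC (orange) arrays. Open points are not well above background and lines are group means of the log signal. The EpiSC points lie above all mES points in the 4 Zeb2 panels, and Col1a1 is lowest on mES replicate 2 and EpiSC replicate 3.

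Zeb1, the other Zeb gene, which stands outside the set and is listed as Zfhx1a, had a scaled signal of 433, 424 and 929 in mES and of 1294, 1372 and 1104 in EpiSC. The groups lay apart, with mES replicate 3 nearest to the EpiSC values. Its log2 fold change was 1.17 ± 0.33 (adjusted p = 0.0435), and when arrays were left out in turn 1 of 6 fits kept it (log2 fold change 0.98 to 1.55; highest adjusted p = 0.121, without mES replicate 1). Averaging both EpiSC-7 passages also ended the call (adjusted p = 0.0906).

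Snai3 had a scaled signal of 97.1, 87.8 and 69.7 on mES replicates 1 to 3 and of 32.7, 8.99 and 36.7 on EpiSC replicates 1 to 3. Its values on EpiSC replicates 1 and 3 were similar, and that on replicate 2 was lower and not well above background. The mean in mES was 3.80 times that in EpiSC (log2 fold change -1.93 ± 0.54, adjusted p = 0.0416). The call was close to the threshold. When arrays were left out in turn it held in 1 of 6 fits, that without EpiSC replicate 2 (-1.28). It was lost after scaling to the median (adjusted p = 0.052) or by quantiles (adjusted p = 0.0607), with Col1a1 as a covariate (adjusted p = 0.0545) and with the position on the slide as a block (adjusted p = 0.0544). The log2 fold change stayed below 0 in all 19 fits that had the probe, from -2.43 to -0.90.

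Snai1, which represses E-cadherin in the primitive streak, did not pass. Its scaled signal was 113, 48.9 and 86.9 on mES replicates 1 to 3 and 122, 101 and 51.8 on EpiSC replicates 1 to 3. The groups overlapped, and the lowest value of each was on the array lowest in Col1a1. Its log2 fold change was 0.14 ± 0.43 (95% interval -0.89 to 1.16, limma adjusted p = 0.833). Snail is known to bind its own promoter, and the RefSeq window of Snai1 (GRCm38.p6), from 250 bases before to 50 after its start, held 1 copy of the E-box CAGGTG, searched on both strands, which was 126 bases before the start. It is shown as the only member window with this motif, with the 250 bases before the start written 5′ to 3′ on the gene's strand and the E-box in capitals, here as its reverse complement CACCTG.

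Snai1, chr2:167537945-167538194, + strand: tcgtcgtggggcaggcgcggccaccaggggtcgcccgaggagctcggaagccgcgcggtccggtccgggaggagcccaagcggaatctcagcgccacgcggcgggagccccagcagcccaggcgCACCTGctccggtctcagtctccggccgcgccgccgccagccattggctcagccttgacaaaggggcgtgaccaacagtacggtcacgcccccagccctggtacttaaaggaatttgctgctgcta

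The windows of Twist1, Twist2, Foxc1 and the 4 starts of Zeb2 held no copy, which says only that these letters are not in those windows, and no window was found for Snai2, Snai3 or Foxc2.

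Snai2, the Slug gene of neural crest and mesenchyme, read 333, 187 and 551 in mES and 577, 608 and 226 in EpiSC. Its EpiSC values on replicates 1 and 2 were near the highest mES value, and EpiSC replicate 3 fell among the mES values. The log2 fold change was 0.40 ± 0.52 (95% interval -0.85 to 1.66, limma adjusted p = 0.589). Among arrays in slide position 4 the difference was 1.25, and for the pair in position 1, mES replicate 3 and EpiSC replicate 3, it was -1.28. That pair joins the array highest in Col1a1 with the array lowest in it. Col1a1 differed by 1.66 at position 4 and by -4.37 at position 1.

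Twist1, needed for cranial mesenchyme and mesoderm, read 248, 89.1 and 236 in mES and 299, 161 and 201 in EpiSC, and the groups overlapped. Its log2 fold change was 0.30 ± 0.45 (95% interval -0.78 to 1.37, adjusted p = 0.649). Twist2, also called Dermo1, a gene of dermal and other mesenchyme, read 84.2, 27.4 and 145 in mES and 187, 158 and 63.6 in EpiSC. Its order within each group was that of Col1a1. The log2 fold change was 0.83 ± 0.68 (95% interval -0.80 to 2.46, adjusted p = 0.391). With Col1a1 as a covariate it was 1.01 ± 0.24 and passed (adjusted p = 0.0367), the only 1 of 20 alternatives in which Twist2 passed. That fit has 1 residual degree of freedom fewer, and without the array lowest in Col1a1 of each group the value was 0.64 (adjusted p = 0.296). At position 4 the difference was 1.84 and at position 1 it was -1.19, beside 1.66 and -4.37 for Col1a1.

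Foxc1 was higher on all EpiSC arrays but did not pass. It read 84.4, 38.5 and 80.0 in mES and 297, 131 and 131 in EpiSC, and EpiSC-5 was the highest while the EpiSC-7 passages differed by less than the rounding. The log2 fold change was 1.43 ± 0.44 (95% interval 0.37 to 2.49, limma adjusted p = 0.0558). It passed in 6 of 20 alternatives, among them scaling to the median (adjusted p = 0.0416) or by quantiles (adjusted p = 0.0489) and Col1a1 as a covariate (adjusted p = 0.028), and in 0 of the 6 that dropped an array. Foxc2 read 49.1, 23.9 and 29.1 in mES and 62.7, 20.4 and 7.0 in EpiSC. The EpiSC values spread around those of mES, and that of EpiSC replicate 3, the array lowest in Col1a1, was not well above background. Its log2 fold change was -0.64 ± 0.76 (95% interval -2.47 to 1.18, adjusted p = 0.554), and the sign turned without EpiSC replicate 3 (0.14). A p that misses the threshold does not show that these 6 genes were unchanged.

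**Figure D2:**
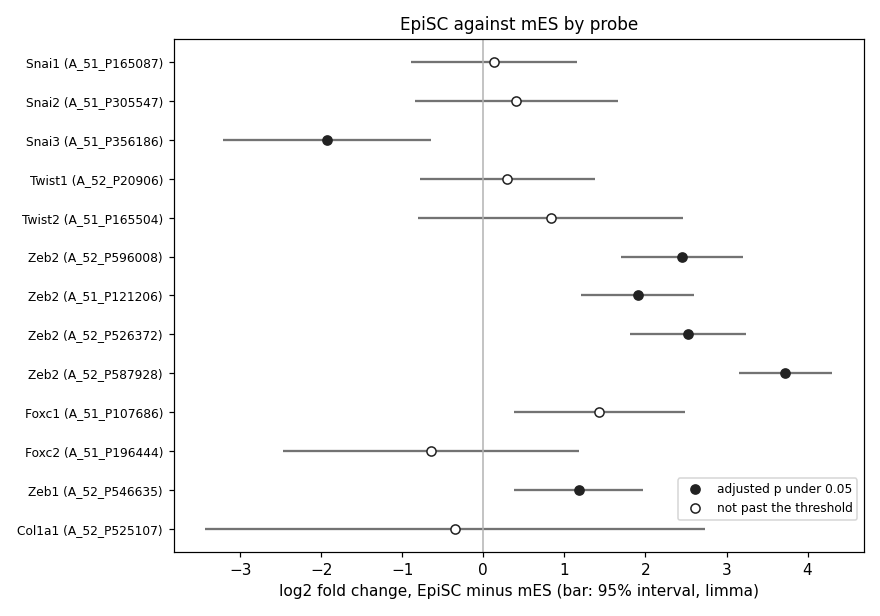
Log2 fold change (EpiSC minus mES) of the member probes, Zeb1 and Col1a1 with 95% intervals from limma, filled where the adjusted p was under 0.05. The 4 Zeb2 intervals lie between 1.21 and 4.30, and Col1a1's runs from -3.43 to 2.73.

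Members and Col1a1 were set side by side on each array. The lowest array of each group was that of Col1a1 for 4 of the 11 probes (36.4%), those of Snai1, Snai2, Twist2 and Foxc2. This compares with 10% of all probes tested and 15 of the 18 tested fibroblast genes, a count that includes Col1a1 itself. Twist1 was lowest on mES replicate 2, as Col1a1 was, and on EpiSC replicate 2, which Col1a1 was not. Foxc1 was also lowest on mES replicate 2. Its values on EpiSC replicates 2 and 3 were nearly equal (0.319 and 0.326 relative to its mean over all arrays). The range of log2 signal over all arrays was smaller for Snai1 than for Col1a1, from -0.75 to 0.57 relative to its mean against -2.58 to 1.79. The part of fibroblast RNA in the values of Snai1, Snai2, Twist1, Twist2, Foxc1 and Foxc2 was not tested beyond the fits given here.

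**Figure D3:**
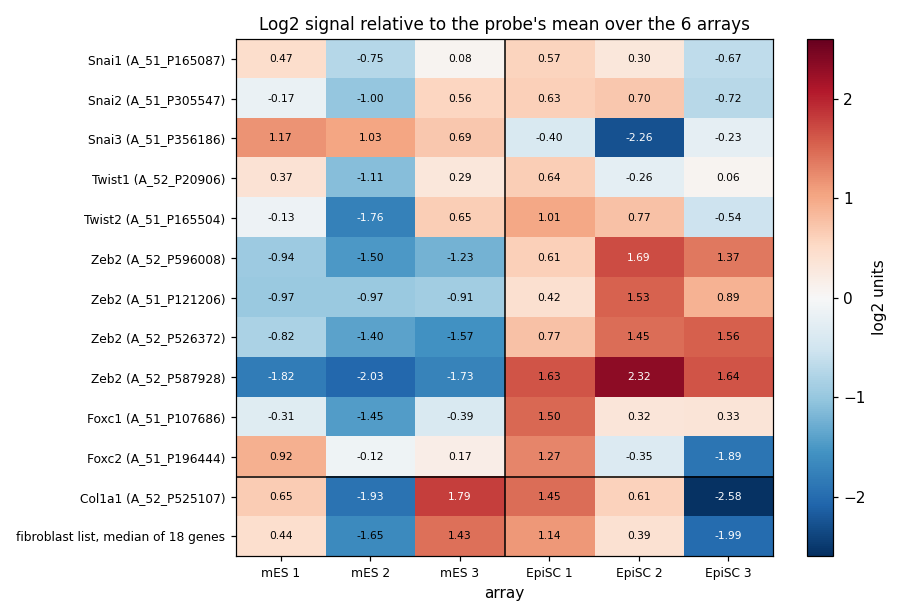
Log2 signal of each member probe on each array relative to the probe's mean over the 6 arrays, with Col1a1 and the median of 18 fibroblast genes below. Red is above the mean and blue below. The Zeb2 rows change sign between the groups, and the Col1a1 row is negative on mES replicate 2 (-1.93) and EpiSC replicate 3 (-2.58).

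The genes most like each member over the 6 arrays were found by the root mean square difference of log2 signals after each probe was centred on its own mean. For Zeb2 these were Tmod1 (0.166) and Adamts15 (0.195) by its brightest probe, and Mab21l2 (0.111), Skida1 (0.146) and Sft2d3 (0.148) by A_51_P121206. By A_52_P526372 they were Lpar4 (0.158), Spsb4 (0.16) and Prtg (0.168), and by A_52_P587928 Slc2a12 (0.28), Phactr1 (0.309) and Fat3 (0.328). The probes of Zeb2 had no gene in common among those named. The difference from Col1a1 was 2.04 to 2.56 for the Zeb2 probes.

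For Snai2 the nearest were Ptgs1 (0.123), Prrx2 (0.126) and Adgre1 (0.13), and for Twist2 the gelatinase gene Mmp2 (0.167), Igf2 (0.197) and Rhoj (0.199). Prrx2 and Mmp2 stand in the lists of EMT regulators and mesenchymal genes described next. Snai1 was nearest to Slitrk6 (0.14), Syn2 (0.174) and Mdfic (0.18), and Twist1 to Il13ra1 (0.129), Ttll11 (0.134) and Nfatc2 (0.173). Snai3 was nearest to Krt13 (0.245), Abcc4 (0.246) and Lgals9 (0.308), Foxc1 to Copz2 (0.185), Cd47 (0.199) and Chst11 (0.208), and Foxc2 to Steap4 (0.343), Prl2c3 (0.352) and 2810429I04Rik (0.354). The difference from Col1a1 was 1.09 for Snai2, 1.03 for Twist2, 1.11 for Foxc2 and 2.13 for Snai3.

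Other regulators of EMT moved in both directions. The counts of this and the next lists stand against 12.2% of all probes that rose and 13.9% that fell, or 11.8% and 14.6% by gene. Of 17 tested, 6 rose and 3 fell, with a median log2 fold change of 0.35. Those that rose were Gsc, an organizer homeobox gene (6.47 ± 0.71, limma adjusted p = 0.00219), Tcf12, an E protein that pairs with Twist (1.77 ± 0.21, adjusted p = 0.00266), the genes of the helix-loop-helix inhibitors Id3 (2.13 ± 0.29, adjusted p = 0.00438), Id2 (1.91 ± 0.39) and Id1 (2.02 ± 0.42), and Zeb1. Id proteins bind E proteins and keep them from DNA. The other E proteins, Tcf3 (0.28 ± 0.16, adjusted p = 0.228) and Tcf4 (0.21 ± 0.16, adjusted p = 0.366), did not pass. Among those that fell were Klf8 (-2.33 ± 0.31, adjusted p = 0.0039) and Grhl2, a factor that upholds the epithelial state (-3.04 ± 0.87, adjusted p = 0.0445). Of the 9, 5 passed whichever array was left out, and Grhl2 in 2 of 6 such fits. Without EpiSC replicate 3, 3 rose and 2 fell. Without the arrays lowest in Col1a1, 3 rose and 0 fell.

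Epithelial genes, many of them targets of Snail and Zeb repression, also split. Of 30 tested, 7 rose, 6 fell and 17 did not pass, with a median of -0.41. The plakophilin gene Pkp3 had a scaled signal of 843, 840 and 988 in mES and of 45.9, 55.0 and 66.4 in EpiSC and fell (-4.01 ± 0.20, adjusted p = 0.00014). The membrane protease gene St14 (-3.00 ± 0.30, adjusted p = 0.00166), the tight junction scaffold gene Tjp3 (-2.19 ± 0.27) and Rab25, of apical vesicle traffic (-2.34 ± 0.55, adjusted p = 0.0243), fell too. Cldn4 and the desmoglein gene Dsg2 were the others. In the other direction the keratin genes of simple epithelia rose. Krt8 read 936, 564 and 835 in mES and 41523, 5336 and 27806 in EpiSC, the lowest EpiSC value being that of EpiSC-7 at passage 20 (log2 fold change 4.59 ± 0.74, adjusted p = 0.00728). Its partner Krt18 (4.21 ± 0.71, adjusted p = 0.00862), Krt19 (2.33 ± 0.50, adjusted p = 0.0185) and the desmoplakin gene Dsp (1.34 ± 0.27, adjusted p = 0.0155) rose as well, as did Krt7, Marveld2 and Tjp1. Some markers of primitive and visceral endoderm, an epithelium that also makes these keratins, rose too. Their part in the keratin values was not tested. Of 8 tested, 3 rose and 0 fell. The endoderm factor gene Sox17 read 132, 62.7 and 114 in mES and 4511, 783 and 1506 in EpiSC (4.16 ± 0.64, limma adjusted p = 0.00649), and Gata6 read 176, 174 and 307 in mES and 7757, 916 and 2218 in EpiSC (3.57 ± 0.74, adjusted p = 0.0166). Both were highest in EpiSC-5 and lowest in EpiSC-7 at passage 20, as Krt8 was. This order was not particular to endoderm markers and keratins, since Gsc, Cdh1, Cldn6 and Ocln had it too. Sox7 rose by 1.01 ± 0.29 (adjusted p = 0.0427). Gata4 (-0.24 ± 0.59, limma adjusted p = 0.785), Amn (-0.66, adjusted p = 0.485) and Cubn (-1.58, adjusted p = 0.0753) lay lower in EpiSC and did not pass. Apoa1 (2.40, adjusted p = 0.0711) and Dab2 (0.62, adjusted p = 0.159) lay higher and did not pass either. Ttr was above background on 0 arrays. With 1 array left out 1 to 3 of the endoderm markers rose, the fewest without mES replicate 2, and 1 fell without EpiSC replicate 1. Without the arrays lowest in Col1a1 0 passed.

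Cdh1, the best known target, read 12564, 9118 and 6300 in mES and 6873, 1863 and 3704 in EpiSC. The groups overlapped through mES replicate 3 and EpiSC-5, and the decrease did not pass (-1.31 ± 0.50, limma adjusted p = 0.0976). On the EpiSC arrays Cdh1 and the brightest Zeb2 probe ran in opposite order, with EpiSC-5 highest in Cdh1 and lowest in Zeb2 and EpiSC-7 at passage 20 the reverse. On the mES arrays they did not, since replicate 1 was highest in both. With 3 arrays per group this is a description, and how many probes share either order was not counted. The EpiSC order of Cdh1 was also that of Krt8, Krt18 and Gsc, which rose, and of Ocln and Cldn6. It was not that of Krt19 or Cdh2. Epcam (-0.73 ± 0.44, adjusted p = 0.249), Ocln (-0.62 ± 0.66, adjusted p = 0.51) and Cldn6 (1.16 ± 0.89, adjusted p = 0.362) did not pass. Of the 13 epithelial calls, 5 passed in all 6 fits with 1 array left out, those of Pkp3, St14, Tjp3, Krt8 and Krt18. With 1 array left out 2 to 6 rose and 3 to 7 fell, the fewest increases being without EpiSC replicate 1 or EpiSC replicate 3, and without the arrays lowest in Col1a1 0 rose and 4 fell.

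E-boxes stood near the starts of epithelial genes of both directions. RefSeq windows (GRCm38.p6) were found for 22 of the 30, and 18 of these held CAGGTG on either strand in at least 1 window. By window it was 22 of 28, against 20.2% of all 32851 windows of this length. Windows of a gene can overlap, as those of Crb3, Marveld2 and Ocln did, so a copy can be counted more than once. A match is a description and not a binding site. The motif was in 3 of 3 genes with a window among those that fell, in 5 of 6 among those that rose and in 10 of 13 that did not pass. Rab25, which fell, and Krt8, which rose, are shown to compare their spacing, as 250 bases before the start, 5′ to 3′ on the gene's strand, with E-boxes in capitals.

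Rab25, chr3:88548280-88548529, - strand: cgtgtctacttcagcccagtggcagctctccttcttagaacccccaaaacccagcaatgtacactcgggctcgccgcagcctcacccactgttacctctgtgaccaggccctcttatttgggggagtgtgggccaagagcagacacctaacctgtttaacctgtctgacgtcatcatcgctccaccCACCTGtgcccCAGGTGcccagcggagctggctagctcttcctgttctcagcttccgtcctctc

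Krt8, chr15:102004343-102004592, - strand: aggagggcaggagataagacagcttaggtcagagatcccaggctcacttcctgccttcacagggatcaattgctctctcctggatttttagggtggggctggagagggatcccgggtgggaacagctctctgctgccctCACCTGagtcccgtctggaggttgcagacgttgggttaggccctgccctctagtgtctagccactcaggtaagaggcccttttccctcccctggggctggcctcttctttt

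The 2 copies of Rab25 lay 64 and 53 bases before its start, on opposite strands. The single copy of Krt8 lay 111 bases before its start. Tjp3 had 1 copy at each of 2 starts, 108 and 17 bases before them.

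**Figure D4:**
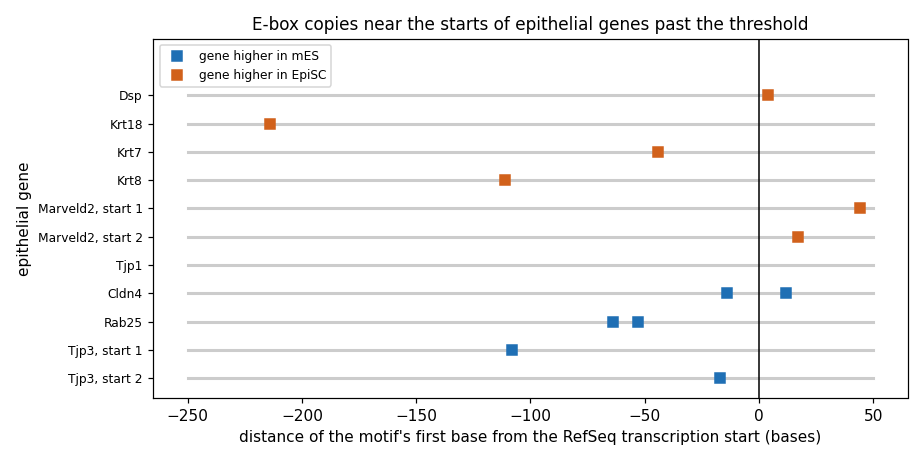
Position of each CAGGTG copy (either strand) relative to the RefSeq start of the epithelial genes that passed the threshold and had a window, blue for genes higher in mES and orange for genes higher in EpiSC. Tjp1 has no copy and Rab25 has 2, 64 and 53 bases before the start.

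Mesenchymal genes rose and fell too. Of 19 tested, 5 rose, 2 fell and 12 did not pass, with a median of 0.70. The N-cadherin gene Cdh2, whose rise against E-cadherin is the usual sign of the cadherin switch, read 47.4, 41.2 and 33.3 in mES and 1301, 682 and 1511 in EpiSC (log2 fold change 4.78 ± 0.33, limma adjusted p = 0.000464). It was high on the array lowest in Col1a1. Tagln (1.70 ± 0.33, adjusted p = 0.0129), an actin-binding protein gene, the membrane protease gene Mmp14 (2.08 ± 0.42, adjusted p = 0.0147), Acta2 (0.90 ± 0.21, adjusted p = 0.0248) and Mmp9 rose. Vim, the vimentin gene, did not pass (0.72 ± 0.28, adjusted p = 0.104). The fibronectin gene Fn1 (-1.66 ± 0.32, adjusted p = 0.0137) and Cdh11, a mesenchymal cadherin gene (-1.41 ± 0.19, adjusted p = 0.00438), fell, and the other Fn1 probes fell as well (-1.72 and -1.81). For 7 of the 19 genes the lowest array of each group was that of Col1a1. Of the 7 calls, 4 passed in all 6 fits with 1 array left out (Cdh2, Cdh11, Mmp14 and Tagln), 3 rose without mES replicate 1, mES replicate 2 or EpiSC replicate 3, and without the arrays lowest in Col1a1 2 rose and 0 fell.

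Genes of signals that can induce EMT were higher in part. Of 22 tested, 7 rose, 1 fell and 14 did not pass, with a median of 0.61. Fgf8, needed for cells to leave the streak (5.01 ± 0.34, limma adjusted p = 0.000451), Tgfbr1, a TGF-beta receptor gene (1.73 ± 0.19, adjusted p = 0.00206), the ligand gene Bmp2 (4.94 ± 0.77, adjusted p = 0.00653, above background on 1 of the 3 mES arrays) and Tgfb1 (1.36 ± 0.22, adjusted p = 0.00744) rose, and so did Smad3, Tgfb2 and Jag1. Notch1 fell (-1.01 ± 0.28, adjusted p = 0.0424). With 1 array left out 5 to 8 rose and 0 or 1 fell, and without the arrays lowest in Col1a1 3 rose and 0 fell.

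Genes of paraxial and early mesoderm, where Foxc1, Foxc2 and Twist1 are known to act, gave no common direction. Of 12 tested, 2 rose (Pax3, at least 2.24-fold, and Dll3, 2.76 ± 0.64) and 2 fell (Mesp2, -1.63 ± 0.20, and Tcf15, -2.17 ± 0.43), with a median of -0.19. Either count is within 1 gene of the share over all probes. Without mES replicate 3, 4 fell, and 1 rose without EpiSC replicate 2 or EpiSC replicate 3. A further list joined cofactors through which Snail and Zeb proteins repress with genes that modify or degrade such proteins, Csnk2a1 and Fbxl5 among them. Of its 15 genes 2 rose and 5 fell. The corepressor gene Ctbp1, a partner of Zeb proteins, rose (1.03 ± 0.17, limma adjusted p = 0.00739) and Ctbp2 stood at -0.59 ± 0.20 (adjusted p = 0.0771). Rcor1 rose (0.84 ± 0.17), while Suz12 (-0.91 ± 0.18), Hdac1 (-0.76 ± 0.16), Csnk2a1 (-1.05 ± 0.23), Sin3a (-0.70 ± 0.17) and Fbxl5 fell. Kdm1a, the demethylase that Snail recruits, had -0.34 ± 0.15 (adjusted p = 0.135). Of these 7 calls only that of Ctbp1 passed whichever array was left out. In such fits 1 gene fell without mES replicate 1, mES replicate 2 or EpiSC replicate 1, and 2 without EpiSC replicate 3. Without the arrays lowest in Col1a1 0 of the 15 passed. Of 10 neural crest markers 3 rose, Sox9 (3.61 ± 0.27, above background on 1 of the 3 mES arrays), Pax3 and Foxd3 (1.51 ± 0.39). Sox10, a defining marker, had -0.13 ± 0.27 (adjusted p = 0.737). Sox9 and Pax3 passed whichever array was left out, but entered the test only through the EpiSC arrays. Foxd3 (limma adjusted p = 0.0333) passed in 1 of 6 such fits and not with Col1a1 as a covariate (adjusted p = 0.057). Among the 7 neural crest markers above background on all 6 arrays 1 rose.

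**Figure D5:**
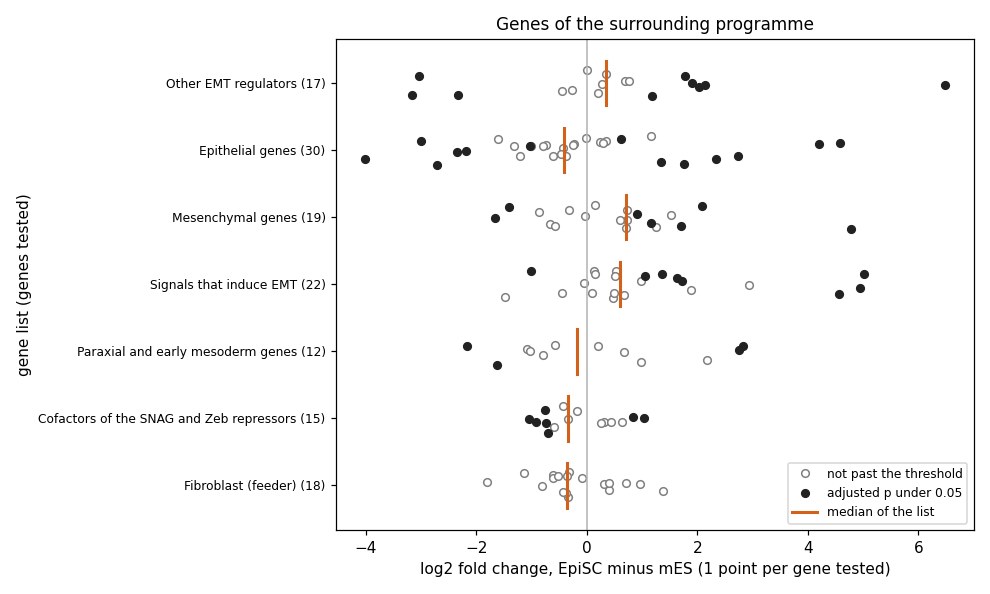
Log2 fold change (EpiSC minus mES) of every tested gene of the lists, 1 point per gene, filled where the adjusted p was under 0.05, with each list's median in orange. Epithelial genes lie on both sides of 0 (7 rose and 6 fell), and 0 of 18 fibroblast genes passed.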

How the data were processed

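RNA isolated with TRIzol was Cy3-labelled and measured on single-channel Agilent arrays with 45018 spots. The deposited intensity of a spot is the processed signal of Agilent Feature Extraction 9.1.3.1, background-subtracted and detrended within the array, per the file headers. The value table deposited by the authors holds the same intensity rounded (largest difference 0.00716 on the log2 scale). No pair of arrays held identical values.

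Control spots and outlier spots (12 to 24 per array) were left out and 0 spots were saturated. Log2 signals had each array's 75th percentile subtracted, spots of 1 probe were averaged, and a probe was tested if well above background throughout at least 1 group, with at most 1 value missing per group. limma 3.58.1 in R 4.3.3 compared EpiSC with mES over all 29552 such probes, two-sided, with Benjamini-Hochberg adjustment and a threshold of 0.05. The fit was tested on simulated data. All adjusted p-values are limma's, and ± is its standard error. Of 41174 probes 22951 were named through their RefSeq accession (GRCm38.p6). In lists a gene is its brightest tested probe.

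Member names, lists and tests were chosen with earlier results of these data known. Genes named are all members, Zeb1, Col1a1, a fixed set, those with the smallest adjusted p of each list, and the 3 nearest in profile. The other genes that passed in a list of calls, and Amn, Cubn, Apoa1 and Dab2, are named after their values were seen. The cause of any difference was not tested. Some genes that the naming rule covers are not reported here. No build for the probe design is given in the sources used here.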

Additional observations from a re-analysis of the deposited data

How the results depend on the processing

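Over all probes 7708 passed, and 12145 without a filter on dim probes, 16971 with the slide as a random block (fitted correlation -0.693), 3895 with the arrays at position 4, 2078 without the 2 arrays lowest in Col1a1 (chosen after seeing the data) and 4118 to 7142 with 1 array left out. Of the 8 genes 2 passed, Zeb2 and Snai3. It was 1, Zeb2, with the position as a block, with the arrays at position 4 and without the 2 arrays lowest in Col1a1, and 1 to 2 with 1 array left out. It was 3 with a mean-variance trend or the slide block, where Foxc1 joined Zeb2 and Snai3. It was also 3 with Col1a1 as a covariate, which were Zeb2, Foxc1 and Twist2. Each slide held arrays of only 1 cell type. With the negative slide correlation standard errors were smaller, for Foxc1 0.31 against 0.44, so calls of the slide block are no separate support. The 2 that passed with quantile normalization, median scaling or only probes above background on all 6 arrays were Zeb2 and Foxc1. The causes were not tested. The 4 Zeb2 probes stayed higher in EpiSC in all alternatives that had them. They passed except A_52_P526372 with normexp (0.38, adjusted p = 0.132), A_51_P121206 at position 4 (adjusted p = 0.0534), and this probe and A_52_P596008 without the 2 arrays lowest in Col1a1. With normexp, which adds a constant of 50 to every signal, the others were 1.88 (A_52_P596008), 1.14 (A_51_P121206) and 0.67 (A_52_P587928). In that fit A_52_P526372 and A_52_P587928 both lay below their printed bounds. The sign turned for Snai1 with normexp (-0.0568), the slide block (-0.22) and 1 array left out (-0.20 to 0.50), for Twist1 with the slide block (-0.14), without the 2 arrays lowest in Col1a1 (-0.14) and with 1 array left out (-0.18 to 0.56), and for Foxc2 at position 4 (0.0612) and with 1 array left out (-1.44 to 0.14). No paired analysis was possible because the labels give no replicate numbers and the numbers used here follow the order of deposit. Signals near background limit Snai3, Foxc2 and the dimmer Zeb2 probes.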
